A study of Mus musculus with 13 samples.

Results

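The genes described here are the matrix metalloproteinases (MMPs), the ADAM and ADAMTS metalloproteinases and their tissue inhibitors, the TIMPs. They were taken as every gene of the count files whose symbol starts with Mmp, Timp, Adam or Adamts followed by a digit, which gave 78 of 32285 genes: 22 Mmp, 4 Timp, 33 Adam and 19 Adamts genes. Of these, 67 had at least 1 unique molecular identifier (UMI, a counted RNA molecule) in the retained cells and 11 had none, namely Mmp1b, Adam6a, Adam7, Adam20, Adam24, Adam25, Adam26a, Adam26b, Adam29, Adam34 and Adam39. Counting these, 14 members had fewer than 10 UMIs, while 27 had more than 1000 UMIs in the tumors.

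MMPs are zinc-dependent enzymes that are made as inactive precursors and, once activated, cut collagens, laminins, elastin and other proteins outside the cell. Most are secreted, and the membrane-type MMPs stay on the cell surface. ADAMs are membrane-bound relatives that release growth factors, cytokines and receptors from the cell surface, a process called shedding, and ADAMTS enzymes are secreted relatives that cut proteoglycans or trim procollagens. TIMPs bind the active site of these enzymes and block it. In intestinal tumors these genes are known from the epithelium, from fibroblasts and from infiltrating leukocytes, and mouse Paneth cells use matrilysin to activate their antimicrobial defensins.

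The libraries are droplet-based single-cell RNA-seq of 10 colon tumors and 3 samples of adjacent mucosa from 3 C57BL/6J mice of genotype ApcMin/+; p16cis/cis on the supplemented diet. The Apc mutation, the engineered p16 allele and the diet were common to tumors and mucosa, so the comparison is of tissue and holds no untreated or wild-type mouse. Mouse A (24 weeks) gave tumors 5 to 8 and mucosa 2, mouse B (23 weeks) gave tumors 9 and 10 and mucosa 3, and mouse C (20 weeks) gave tumors 1 to 4 and mucosa 1. Mucosa was dissociated with EDTA and TrypLE and tumors with a tumor dissociation kit, so tissue and dissociation cannot be told apart. The labels name some libraries female, and give both sexes to the libraries of mouse A and to those of mouse C, but all 13 libraries carried Y-linked RNA (Ddx3y at 29.4 to 50.2 UMIs per 1e+06 UMIs, written CPM) and Xist did not exceed 0.123 CPM. Sex was therefore not used.

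After filtering, 85953 tumor cells and 22542 mucosa cells remained, with 50604364 to 87657476 UMIs per library. The median was 7206, 8168 and 9564 UMIs per cell in mucosa 1, 2 and 3 and 3607 to 5017 in the tumors. The mitochondrial filter removed 14.3, 28.9 and 21.4% of the barcodes of these mucosa samples and 4.29 to 11.5% of those of a tumor. Pairs of libraries shared at most 0.56% of the barcodes of the smaller one. Immune cells made up 71.7 to 82.5% of the cells of a tumor and 22.6 to 44.7% of those of a mucosa sample, and neutrophil-like cells 22.5 to 38.0% against 0.0958 to 0.267%. Cell classes were rebuilt from the counts and carry the ending -like. Fibroblast-like cells were few, 314 in the tumors, 93 of them in tumor 5, and 9 in the mucosa. This class was the only stromal cluster, and its leading genes include Rgs5, a marker fixed for smooth muscle cells or pericytes. Whether it pools several kinds of stromal cell was not tested. Paneth-like cells numbered 912 and 15, and tumor epithelial-like cells 13012 and 23. A class was used only in libraries with at least 20 of its cells, so its levels below rest on 10 tumors except for fibroblast-like cells (6 tumors), goblet-like cells (9 tumors) and plasmacytoid dendritic cell-like cells (8 tumors). Levels by class are CPM of the UMIs of that class, averaged within each mouse and then given as mean ± SD over the 3 mice. In sums over all cells, fewer cells of a type and less RNA per cell cannot be told apart.

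Several of the MMP genes on which the results turn lie side by side. The annotation places 9 members, Mmp13, Mmp12, Mmp1b, Mmp3, Mmp10, Mmp8, Mmp27, Mmp20 and Mmp7, within 427.1 kb of chromosome 9, between bases 7272514 and 7699585 of mm10. The 120 bases before the RefSeq start (GRCm38.p6, plus strand) are given for the 5 detected members of this cluster that hold the letters searched for, and for Mmp8, which does not. The capitals mark TGAGTCA or its reverse complement TGACTCA, letters that AP-1, the Fos and Jun family of transcription factors, is known to bind.
Mmp13, chr9:7272394-7272513: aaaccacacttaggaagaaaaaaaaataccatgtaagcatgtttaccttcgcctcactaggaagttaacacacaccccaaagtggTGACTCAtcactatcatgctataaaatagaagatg
Mmp12, second of 2 starts, chr9:7347254-7347373: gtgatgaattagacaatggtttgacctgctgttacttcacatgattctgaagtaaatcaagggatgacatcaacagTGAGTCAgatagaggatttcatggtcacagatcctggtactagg
Mmp3, chr9:7445702-7445821: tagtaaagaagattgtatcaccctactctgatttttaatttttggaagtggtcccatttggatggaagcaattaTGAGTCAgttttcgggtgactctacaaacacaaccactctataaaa
Mmp10, chr9:7502222-7502341: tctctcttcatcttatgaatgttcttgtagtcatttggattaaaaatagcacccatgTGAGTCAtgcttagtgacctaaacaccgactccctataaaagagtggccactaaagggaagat
Mmp7, first of 2 starts, chr9:7691970-7692089: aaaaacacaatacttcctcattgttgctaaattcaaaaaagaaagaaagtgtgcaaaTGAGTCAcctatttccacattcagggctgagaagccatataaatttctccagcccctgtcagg
Mmp8, chr9:7558309-7558428: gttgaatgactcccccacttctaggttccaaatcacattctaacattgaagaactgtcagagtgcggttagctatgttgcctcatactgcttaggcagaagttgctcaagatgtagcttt

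These letters begin 35 bases before the start of Mmp13, 44 before the second start of Mmp12, 46 before that of Mmp3 and 63 before that of Mmp10 and the first start of Mmp7, and the stretch of Mmp8 holds none. The 120 bases before the first start of Mmp12 and before the second start of Mmp7 hold none either. Searched on both strands in the 250 bases before each start, the letters occur in 6 of the 9 members of the cluster, in 8 of the 48 members with a RefSeq promoter (16.7%) and in 5.16% of 27025 genes. The 8 members are Mmp1b, Mmp3, Mmp7, Mmp10, Mmp12, Mmp13, Adam19 and Adam29. A TATA box, TATAAA on either strand, was found in 22.9% of the members and 14.3% of all genes. A match describes the letters only, since binding was not measured.

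Summed over all retained cells of each library, 53 members could be tested. Of these, 42 were higher in tumors and 4 were lower (edgeR quasi-likelihood test, adjusted p below 0.05), where 36.1% of all 17554 genes tested were called higher and 33.8% lower. The 14 members that had UMIs and could not be tested were Mmp16, Mmp21, Mmp24, Adam2, Adam5, Adam6b, Adam21, Adam32, Adam33, Adamts8, Adamts13, Adamts18, Adamts19 and Adamts20. The median log2 fold change of the tested members was 2.75, against 0.0279 over all genes. In 35 members every tumor lay above every mucosa sample and in 1, Adam18, every tumor lay below, against 27.4% and 25.6% of all genes. By role, 2 of 2 tested collagenases, 2 of 2 gelatinases, 3 of 3 stromelysins, 2 of 2 in the group of matrilysin and macrophage elastase, 3 of 4 membrane-type MMPs and 3 of 4 TIMPs were higher. Of the ADAMs of somatic tissues 10 of 11 were higher, and of the other ADAMs 4 of 6. Of the 42 higher calls, 35 held in each of 21 alternative analyses, and Mmp15, Mmp23, Adam1b, Adam9, Adamts2, Adamts5 and Adamts17 did not, Adam1b because it could not be tested with the tumors of a mouse summed. Of the 4 lower calls only that of Adam18 held in each, and those of Mmp28, Adamts3 and Adamts16 did not. The classes that held these RNAs differed from member to member, as the map of levels by class shows.

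**Figure D1:**
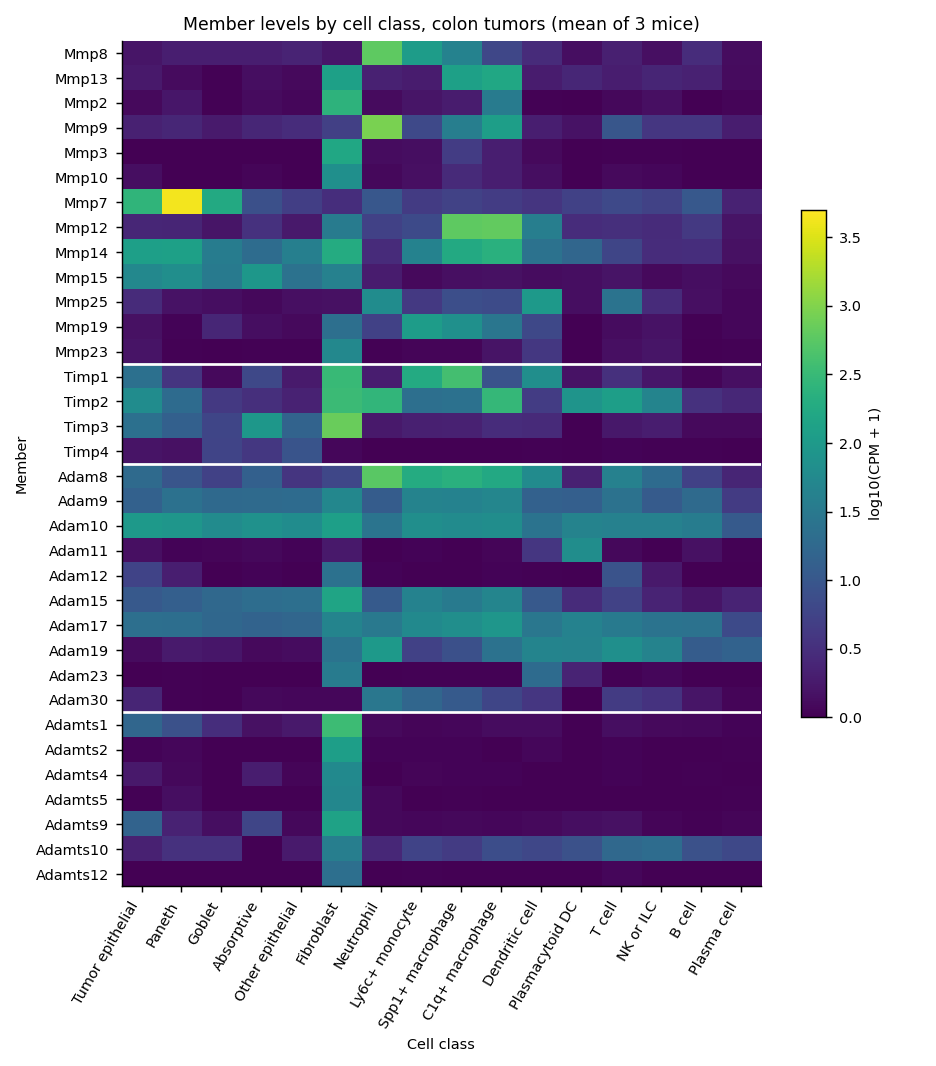
Levels of 34 members (rows, grouped as MMPs, TIMPs, ADAMs and ADAMTS) in 16 cell classes (columns) of the colon tumors, as log10(CPM + 1) of the mean over 3 mice. Mmp8 and Mmp9 stand out in neutrophil-like cells, Mmp12 in both macrophage-like classes, Mmp13 in these and in fibroblast-like cells, Mmp7 in Paneth-like cells, and Adamts1, Adamts2 and Adamts9 in fibroblast-like cells.

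**Figure D2:**
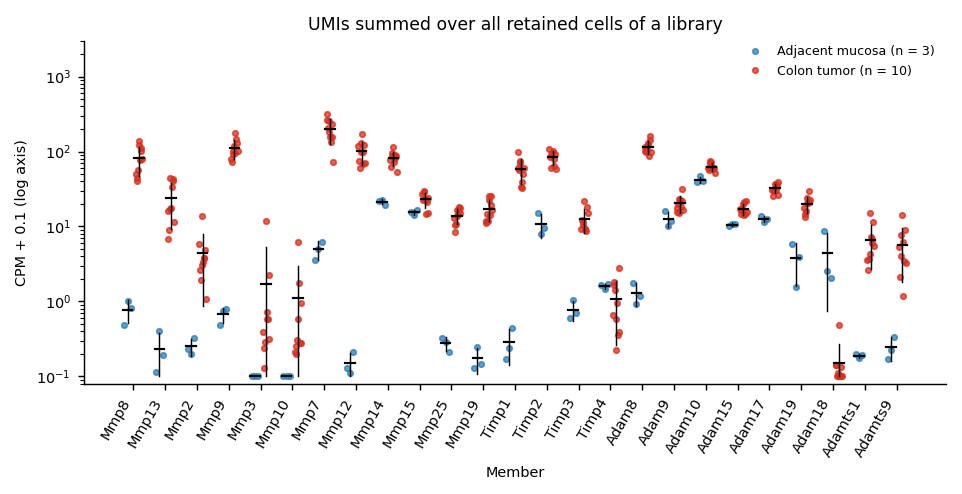
CPM + 0.1 (log axis) of 25 members in all retained cells of each library, with 1 point per library, a bar at the mean and a line of 1 SD, for 3 mucosa samples and 10 tumors. Mmp12 runs from 61 to 170 CPM in tumors and does not pass 0.114 CPM in mucosa, while Adam18 is the member that lies lower in every tumor.

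Mmp7 encodes matrilysin, the smallest MMP and one made mainly by epithelial cells. Its level in all cells was 3.42, 4.95 and 6.19 CPM in mucosa 1, 2 and 3 and ranged from 72.8 (tumor 10) to 313 CPM (tumor 2) in tumors, with a median of 194. Every tumor lay above every mucosa sample, and the log2 fold change was 5.34 ± 0.48 (SE; edgeR, adjusted p = 5.03e-07). Paneth-like cells, which also carry defensin and lysozyme RNA, had the highest level, 4348 ± 873 CPM, with a range of 2765 to 6287 over the tumors. They made up 1.06% of tumor cells and held 54.2% of the Mmp7 UMIs. Tumor epithelial-like cells followed at 261 ± 39.3 CPM and held 43.0%. Paneth-like cells were above them in 10 of 10 tumors, by more than the SD of either class. Goblet-like cells came next at 174 ± 165 CPM, a spread too wide to place them below tumor epithelial-like cells, which were higher in 6 of 9 tumors.

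After every cell was thinned to 1000 UMIs, 77.2% of Paneth-like, 17.7% of tumor epithelial-like and 3.6% of goblet-like cells had an Mmp7 UMI, against 0.726% of B cell-like cells, which should lack it (87.8%, 63.9%, 9.74% and 1.54% before thinning). The thinning left out 25 Paneth-like, 164 tumor epithelial-like, 16 goblet-like and 121 B cell-like cells with fewer UMIs, and the median depths were 11877, 11477, 12332 and 2236 UMIs. The share in goblet-like cells thus stayed above the B cell background but far below that of the other epithelial classes named. Among the classes with at least 20 cells in a mucosa library, goblet-like cells had the highest Mmp7, at 12.4 ± 5.94 CPM (3 libraries). They held 768 of its 1176 mucosa UMIs. The 15 Paneth-like and 23 tumor epithelial-like cells of the mucosa were too few to be given a level.

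Mmp12 encodes macrophage elastase. Mucosa 1, 2 and 3 had 0.0288, 0.0125 and 0.114 CPM, and the tumors 61 to 170 CPM with a median of 98.4. The groups were far apart, with a log2 fold change of 10.82 ± 0.64 (edgeR, adjusted p = 1.58e-08). Its gene overlaps Mmp1b on the other strand, which had no UMI. C1q+ macrophage-like cells had 638 ± 181 CPM and Spp1+ macrophage-like cells 596 ± 38.4 CPM, and together they held nearly all of the RNA, 49.4% and 46.8%. The first class was higher in 4 of 10 tumors, so the order of both was not fixed. Tumor 6 had the highest level in C1q+ macrophage-like cells, 1435 CPM, and tumor 10 the lowest, 367 CPM. Dendritic cell-like cells, at 37.7 ± 4.63 CPM, were lower than Spp1+ macrophage-like cells in 10 of 10 tumors. At 1000 UMIs per cell, 16.3% of C1q+ and 12.7% of Spp1+ macrophage-like cells had an Mmp12 UMI against 0.249% of B cell-like cells (34.8%, 21.1% and 0.706% unthinned).

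Among the collagenases, which cut fibrillar collagen, Mmp8 is the form stored in neutrophil granules and Mmp13 is made by macrophages and connective tissue cells. Mmp8 stood at 0.388, 0.915 and 0.730 CPM in the mucosa samples and at 40.2 to 137 CPM in tumors (median 78.2), with no overlap (log2 fold change 6.90 ± 0.58, edgeR adjusted p = 2.79e-07). Neutrophil-like cells had 607 ± 170 CPM and held 83.9% of the UMIs, Ly6c+ monocyte-like cells 110 ± 33.8 CPM and 10.8%, and Spp1+ macrophage-like cells 43.0 ± 7.58 CPM. This order held in 10 of 10 tumors at both steps. The mucosa held 43 neutrophil-like cells in all, and the 1 mucosa sample with at least 20 of them gave 979 CPM from 39 UMIs, which lies above the tumor range of 353 to 891 CPM. Without replicates there is no test of that difference. The large change of Mmp8 in the sums over all cells thus stood beside a neutrophil-like share that was 0.191% of all mucosa cells and 30.5% of all tumor cells, and the part of that share in the change was not tested.

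Mmp13 was at 0.0144, 0.301 and 0.0913 CPM in mucosa and 6.78 to 44.2 CPM in tumors (median 17.4), again without overlap (log2 fold change 7.39 ± 0.96, edgeR adjusted p = 1.22e-05). Its highest classes were C1q+ macrophage-like cells at 159 ± 70.6 CPM, Spp1+ macrophage-like cells at 128 ± 56.8 CPM and fibroblast-like cells at 125 ± 82.0 CPM. Neighbours in this order did not differ beyond their spread. Both macrophage-like classes held 52.4% and 41.2% of the UMIs and fibroblast-like cells 3.48%. In fibroblast-like cells the tumors ranged from 0 (tumor 6) to 438 CPM (tumor 5).

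The gelatinases cut denatured collagen and the collagen IV of basement membranes. Mmp9 had 0.388, 0.639 and 0.684 CPM in mucosa and 72.7 to 175 CPM in tumors (median 102), and the groups did not overlap (log2 fold change 7.59 ± 0.39, edgeR adjusted p = 5.77e-09). Neutrophil-like cells had 894 ± 41.5 CPM and held 89.0% of the UMIs. C1q+ macrophage-like cells had 117 ± 14.6 CPM, from 10.3 (tumor 1) to 247 CPM (tumor 3) over the tumors, and were below neutrophil-like cells in 10 of 10 tumors. At 1000 UMIs per cell 52.5% of neutrophil-like, 3.22% of C1q+ and 1.11% of Spp1+ macrophage-like cells had an Mmp9 UMI, against 0.408% of B cell-like cells. Unthinned, these shares were 77.1%, 7.78%, 2.55% and 0.706%. The 1 mucosa sample with enough neutrophil-like cells gave 1054 CPM from 42 UMIs, inside the tumor range of 694 to 1191 CPM.

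Mmp2, the other gelatinase, was at 0.129, 0.10 and 0.228 CPM in mucosa and 0.988 to 13.6 CPM in tumors (median 3.50; log2 fold change 4.79 ± 0.81, edgeR adjusted p = 0.000128). Fibroblast-like cells had 243 ± 126 CPM and were above C1q+ macrophage-like cells, at 33.1 ± 8.47 CPM, in 6 of 6 tumors. The more numerous C1q+ macrophage-like cells nevertheless held 62.1% of the Mmp2 UMIs and fibroblast-like cells 31.3%. The highest tumor in all cells was tumor 5, which held 93 of the 314 fibroblast-like cells.

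The stromelysins Mmp3 and Mmp10 activate other MMPs and cut many matrix proteins. No UMI of either was found in the 3 mucosa samples. In tumors Mmp3 ranged from 0.0313 to 11.6 CPM (median 0.385) and Mmp10 from 0.0996 to 6.03 CPM (median 0.192), with tumor 5 highest for both. Against the limit of 3 counts over the mucosa group, Mmp3 was at least 130-fold and Mmp10 at least 80.6-fold higher (edgeR adjusted p = 0.0168 and 0.0105). Without tumor 5 these limits were at least 39.1-fold for Mmp3 and at least 34.8-fold for Mmp10, and both calls remained (edgeR adjusted p = 0.00385 and 0.00335). Fibroblast-like cells held 74.2% of the Mmp3 UMIs at 156 ± 179 CPM and 56.8% of the Mmp10 UMIs at 69.7 ± 99.9 CPM, so their levels differed widely between tumors. Tumor 5 had 725 CPM of Mmp3 and 363 CPM of Mmp10 in these cells. The other tumors with enough of them had 0 to 132 CPM of Mmp3 and 5.18 to 26.4 CPM of Mmp10. Mmp11, stromelysin 3, moved from 0.633, 0.301 and 0.456 CPM to 0.573 to 2.02 CPM (median 1.46). Its groups overlapped, with a log2 fold change of 1.63 ± 0.34 (edgeR, adjusted p = 0.000721).

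Among the membrane-type MMPs, Mmp14 is the main activator of pro-Mmp2 and cuts collagen at the cell surface. It had 21.8, 22.7 and 19.5 CPM in mucosa and 53.3 to 116 CPM in tumors (median 84.8), without overlap (log2 fold change 1.94 ± 0.19, edgeR adjusted p = 9.38e-07). Its RNA was spread over more classes than that of the secreted collagenases. C1q+ macrophage-like cells had 219 ± 33.9 CPM, fibroblast-like cells 189 ± 59.9, Spp1+ macrophage-like cells 174 ± 11.9 and Paneth-like cells 125 ± 11 CPM. Neighbours among the first 3 did not differ beyond their spread, although C1q+ were above Spp1+ macrophage-like cells in every tumor. Tumor epithelial-like cells held 50.1% of the UMIs. At 1000 UMIs per cell, 12.5% of tumor epithelial-like, 18.7% of C1q+ macrophage-like and 18.1% of fibroblast-like cells had an Mmp14 UMI, against 0.272% of B cell-like cells (68.2%, 77.4%, 58.3% and 0.463% unthinned).

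Mmp15 is a related surface enzyme. It had 15.6, 14.1 and 16.5 CPM in mucosa and 14.4 to 29.8 CPM in tumors (median 23.0), and the ranges overlapped (log2 fold change 0.57 ± 0.19, edgeR adjusted p = 0.0154). Absorptive epithelial-like cells had 90.2 ± 23.4 CPM, Paneth-like cells 67.3 ± 12.7 and tumor epithelial-like cells 53.0 ± 3.07 CPM, and neighbours in this order did not differ beyond their spread. Both steps of the order held in 9 of 10 tumors. Tumor epithelial-like cells held 75.3% of the UMIs. Mmp25, a leukocyte enzyme anchored to the membrane by a lipid, rose from 0.230, 0.188 and 0.114 CPM to between 8.29 and 18.2 CPM (median 14.2; log2 fold change 6.28 ± 0.35, edgeR adjusted p = 8.96e-09). Dendritic cell-like cells had 98.6 ± 37.5 CPM and neutrophil-like cells 63.0 ± 7.10 CPM, which did not differ beyond the spread, and T cell-like cells had 24.8 ± 2.39 CPM. The first class was above the second in 9 of 10 tumors. Neutrophil-like cells held 51.4% of its UMIs. Mmp17 was tested and not called (adjusted p = 0.169), and Mmp16 and Mmp24 had too few UMIs to test.

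Of the other MMPs, Mmp19 moved from 0.0288, 0.150 and 0.0456 CPM to between 10.9 and 25.2 CPM (median 15.5) without overlap (log2 fold change 7.78 ± 0.53, edgeR adjusted p = 4.9e-08). Ly6c+ monocyte-like cells had 112 ± 22.4 CPM, Spp1+ macrophage-like cells 70.9 ± 5.44 and C1q+ macrophage-like cells 27.4 ± 9.53 CPM. The first was above the second in 9 of 10 tumors and the second above the third in 10 of 10, each by more than the SDs. Fibroblast-like cells, at 21.2 ± 15.8 CPM, were below C1q+ macrophage-like cells in 4 of 6 tumors, not beyond the spread. Mmp27 had no UMI in mucosa and 0.0996 to 0.678 CPM in tumors, at least 23.6-fold higher (edgeR adjusted p = 0.000104). Mmp23 reached 51.7 ± 31.3 CPM in fibroblast-like cells, from 0 (tumor 6) to 146 CPM (tumor 5). Its sums over all cells overlapped between the tissues (log2 fold change 2.21 ± 0.73, edgeR adjusted p = 0.0146). Mmp28, epilysin, was lower in tumors in the sums over all cells. It had 1.94, 1.32 and 1.41 CPM in mucosa and 0.604 to 1.58 CPM in tumors, with overlap (log2 fold change −0.68 ± 0.26, edgeR adjusted p = 0.0288).

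**Figure D3:**
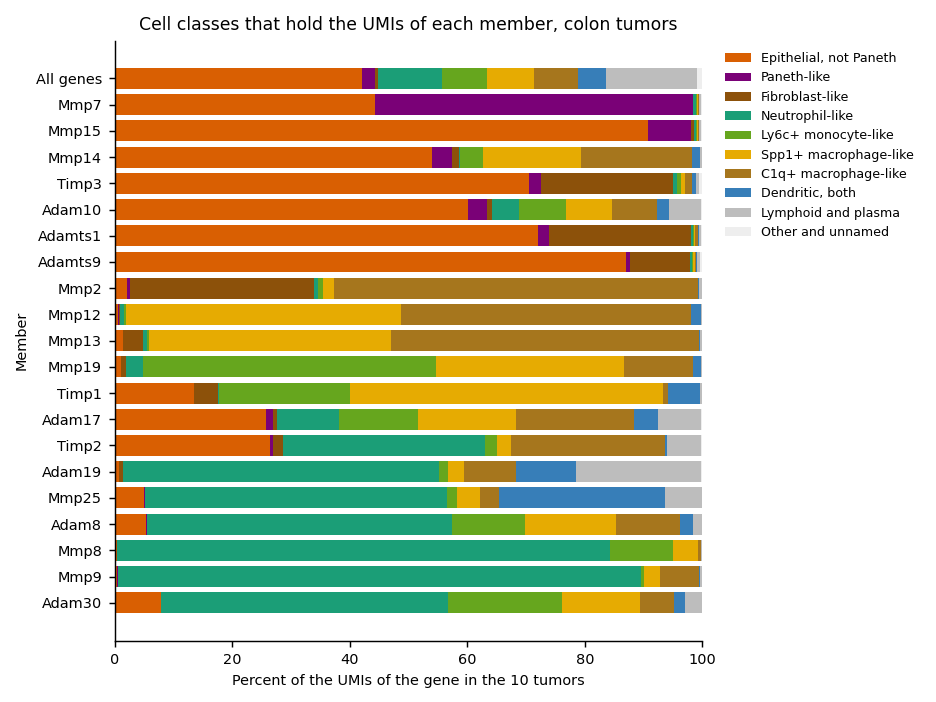
Percent of the UMIs of each of 20 members that fell into each group of cell classes in the 10 tumors, with the share over all genes as the top bar. Neutrophil-like cells held 11% of all UMIs but 89.0% of those of Mmp9 and 83.9% of those of Mmp8, and Paneth-like cells 2.26% of all UMIs but 54.2% of those of Mmp7.

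The 4 TIMPs differed in where they were found. Timp1, the secreted inhibitor that responds to inflammation, was at 0.0719, 0.138 and 0.342 CPM in mucosa and 32.5 to 99.6 CPM in tumors (median 58.4; log2 fold change 8.24 ± 0.58, edgeR adjusted p = 6.28e-08). The groups did not overlap. Spp1+ macrophage-like cells had 386 ± 95.8 CPM and held 53.2% of its UMIs, fibroblast-like cells had 312 ± 309 CPM, and Ly6c+ monocyte-like cells had 179 ± 93.0 CPM and held 22.4%. Within the Spp1+ macrophage-like class, Timp1 was at 712 ± 273 CPM in the cluster led by Inhba and Serpinb2 and at 73.4 ± 40.8 CPM in the cluster led by Ccl24, Spp1 and Arg1. Neighbours in the order of classes did not differ beyond their spread, and fibroblast-like cells ran from 68.6 CPM (tumor 10) to 1247 CPM (tumor 5). The Spp1+ macrophage-like class was above the Ly6c+ monocyte-like class in every tumor, by more than the SDs. C1q+ macrophage-like cells, which were high in Mmp12 and Mmp13, had 7.74 ± 1.28 CPM of Timp1. At 1000 UMIs per cell, 14.0% of Spp1+ macrophage-like, 14.1% of fibroblast-like and 9.22% of Ly6c+ monocyte-like cells had a Timp1 UMI, against 0.0227% of B cell-like cells (25.6%, 44.9%, 21.6% and 0.0662% unthinned).

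Timp2, which both inhibits MMPs and takes part in the activation of pro-Mmp2 by Mmp14, stood at 14.9, 7.79 and 9.49 CPM in mucosa and 57.9 to 106 CPM in tumors (median 86.1), without overlap (log2 fold change 2.98 ± 0.27, edgeR adjusted p = 5.59e-07). Fibroblast-like cells had 334 ± 152 CPM, C1q+ macrophage-like cells 290 ± 4.83, neutrophil-like cells 268 ± 24.6 and T cell-like cells 116 ± 16.1 CPM. Neighbours among the first 3 did not differ beyond their spread. Neutrophil-like cells held 34.4% of the UMIs and C1q+ macrophage-like cells 26.2%. Timp3, the inhibitor that binds to the matrix and also blocks ADAM17, was at 0.503, 0.940 and 0.593 CPM in mucosa and 8.72 to 21.5 CPM in tumors (median 10.9; log2 fold change 4.18 ± 0.38, edgeR adjusted p = 5.02e-07). Fibroblast-like cells had 710 ± 297 CPM, above absorptive epithelial-like cells (88.7 ± 39.1 CPM) in 6 of 6 tumors, and these were above tumor epithelial-like cells (22.1 ± 5.42 CPM) in 9 of 10. Tumor epithelial-like cells still held 52.3% of its UMIs and fibroblast-like cells 22.4%.

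Timp4 did not follow the other TIMPs. Mucosa had 1.57, 1.35 and 1.59 CPM and the tumors 0.123 to 2.67 CPM (median 0.704), and the difference was not called (log2 fold change −0.63 ± 0.65, edgeR adjusted p = 0.399). Epithelial cells without a class name held 63.1% of its tumor UMIs, at 8.08 ± 3.20 CPM. Timp1, Timp3 and Timp4 each overlap a synapsin gene (Syn1, Syn3 and Syn2) on the other strand.

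**Figure D4:**
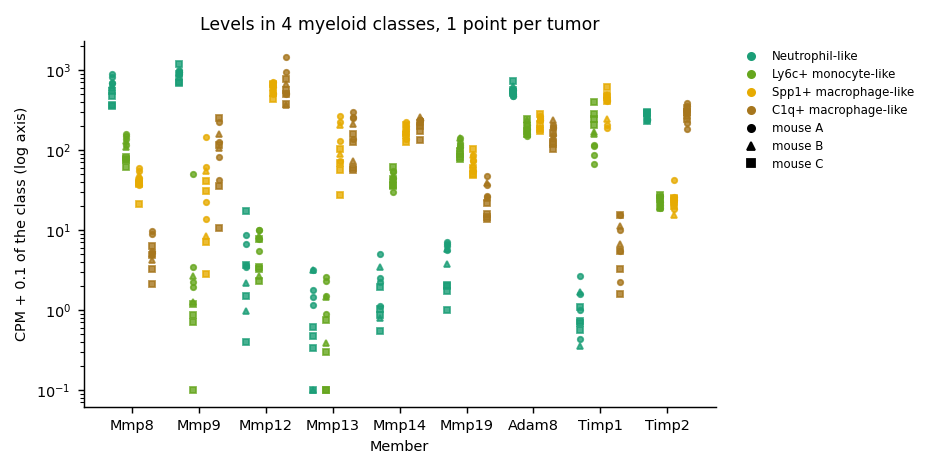
CPM + 0.1 of the class (log axis) for 9 members in 4 myeloid classes, with 1 point per tumor and a marker shape for each mouse. Mmp9 is highest in neutrophil-like cells in all 10 tumors, Mmp12 and Mmp13 lie high in both macrophage-like classes, and Timp1 is high in Ly6c+ monocyte-like and Spp1+ macrophage-like cells and low in C1q+ macrophage-like cells, the Spp1+ class being an average over clusters with 712 and 73.4 CPM of Timp1 in those led by Inhba and by Ccl24.

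Among the ADAMs, Adam8, a leukocyte sheddase, was higher in tumors. It was at 1.68, 0.827 and 1.08 CPM in mucosa and 87.5 to 162 CPM in tumors (median 109), without overlap (log2 fold change 6.62 ± 0.31, edgeR adjusted p = 3.31e-09). Neutrophil-like cells had 559 ± 49.8 CPM and held 51.9% of its UMIs. Spp1+ macrophage-like cells followed at 225 ± 19.4 CPM, Ly6c+ monocyte-like cells at 188 ± 12.4 and C1q+ macrophage-like cells at 168 ± 35.6 CPM. The first 2 steps of this order held in 10 of 10 tumors.

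Adam10 and Adam17 are the broadly expressed sheddases, of Notch receptors and cadherins and of TNF and EGF receptor ligands respectively. Adam10 had 39.0, 46.4 and 40.3 CPM in mucosa and 51.3 to 74.0 CPM in tumors (median 60.4), and Adam17 13.7, 11.5 and 12.5 CPM against 25.3 to 39.3 CPM (median 31.2). Neither overlapped. The log2 fold changes were 0.57 ± 0.11 (edgeR adjusted p = 0.000269) and 1.36 ± 0.14 (1.42e-06). The highest levels of Adam10 were 122 ± 31.8 CPM in fibroblast-like, 94.8 ± 13.5 in tumor epithelial-like and 85.5 ± 6.04 CPM in Paneth-like cells, and neighbours in this order did not differ beyond the spread. Neutrophil-like cells had less of it, 22.5 to 31.5 CPM over the tumors. Adam17 was led by C1q+ macrophage-like cells at 88.0 ± 7.36 CPM, above Spp1+ macrophage-like cells (67.1 ± 2.90 CPM) in 10 of 10 tumors.

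Adam9 and Adam15, sheddases that also bind integrins, were higher in tumors. Adam9 had 15.9, 10.2 and 11.8 CPM in mucosa and 15.2 to 31.5 CPM in tumors (log2 fold change 0.69 ± 0.21, edgeR adjusted p = 0.0104), and Adam15 9.95, 10.8 and 10.7 CPM against 14.0 to 21.7 CPM (0.70 ± 0.15, adjusted p = 0.00103). The Adam9 ranges overlapped and those of Adam15 did not. Fibroblast-like cells had 143 ± 20.9 CPM of Adam15, above C1q+ macrophage-like cells (47.5 ± 7.51 CPM) in 6 of 6 tumors. Adam19, known from heart development, moved from 5.78, 1.44 and 3.78 CPM to between 13.3 and 29.4 CPM (median 20.5; log2 fold change 2.47 ± 0.36, edgeR adjusted p = 3.41e-05). Adam19 was at 95.3 ± 15.5 CPM in neutrophil-like cells, above T cell-like cells (67.8 ± 10.2 CPM) in 10 of 10 tumors. Dendritic cell-like cells, at 45.8 ± 12 CPM, were below T cell-like cells in 8 of 10 tumors, not beyond the spread.

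Several less abundant ADAMs were concentrated in 1 or a few classes. Plasmacytoid dendritic cell-like cells had 63.3 ± 6.94 CPM of Adam11, above dendritic cell-like cells (2.88 ± 2.23 CPM) in 8 of 8 tumors, and held 40.3% of its UMIs. Dendritic cell-like cells held 80.9% of the UMIs of Adam23 at 18.8 ± 2.29 CPM. Fibroblast-like cells had 33.9 ± 28.1 CPM of it, from 0 to 67.4 CPM, and were the higher class in 3 of 6 tumors, so the levels of both did not differ beyond the spread. Adam12, a gene of developing and fibrotic tissue, was at 23.3 ± 8.45 CPM in fibroblast-like cells, from 0 (tumor 6) to 65.9 CPM (tumor 5). T cell-like cells had 4.95 to 13.9 CPM of it over the tumors. They were above tumor epithelial-like cells (4.62 ± 1.65 CPM) in 8 of 10 tumors, not beyond the spread. Tumor epithelial-like cells held 77.0% of the Adam12 UMIs. In all cells Adam12 moved from 0.0575, 0.0627 and 0.0228 CPM to between 1.32 and 3.48 CPM (median 1.73; log2 fold change 5.4 ± 0.43, edgeR adjusted p = 1.93e-07). Adam22 reached 54.9 CPM in the enteroendocrine-like cells of the 1 tumor that held enough of them, and its sums over all cells were not called (log2 fold change 0.11 ± 0.47, edgeR adjusted p = 0.847).

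Of the other ADAMs, many of which are known from the testis, 15 of 21 were not tested in the sums over all cells. Adam30 was the exception in level. It had 2 UMIs in the 3 mucosa samples and 4138 in the tumors, a ratio of 742 (95% counting interval 205 to 6133). Its tumor range was 3.82 to 9.14 CPM (median 6.75; log2 fold change 9.26 ± 0.50, edgeR adjusted p = 7.9e-09), and neutrophil-like cells had 28.6 ± 3.88 CPM and held 48.7% of its UMIs. Adam1b had no UMI in mucosa and was at least 16.6-fold higher in tumors (edgeR adjusted p = 0.00132). Adam1a (1.01 ± 0.23) and Adam3 (2.99 ± 0.62) were higher and Adam4 was not called (adjusted p = 0.109), as Adam28 among the somatic ADAMs was higher (3.46 ± 0.44) and so was Mmp20, enamelysin, among the other MMPs (1.21 ± 0.27).

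Adam18, known from sperm, went the other way. It was at 8.59, 2.47 and 1.94 CPM in mucosa and 0 to 0.385 CPM in tumors, so every tumor lay below every mucosa sample (log2 fold change −6.30 ± 0.92, edgeR adjusted p = 3.54e-05). Goblet-like cells held 915 of its 964 mucosa UMIs, at 12.1 ± 5.41 CPM, and had 1.58 ± 2.08 CPM in tumors, where it had 34 UMIs in all, 16 of them in goblet-like and 9 in Paneth-like cells. The goblet-like level was 15.7 CPM in tumor 6, 3.19 CPM in tumor 1 and 0 in the other tumors with enough of these cells. Goblet-like cells made up 14.1 to 24.4% of mucosa cells and 0.0833 to 1.85% of tumor cells, and the part of that share in the change was not tested.

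Fibroblast-like cells had the highest level of Adamts1, Adamts2, Adamts4, Adamts5, Adamts9 and Adamts12 by more than the SDs, and that of Adamts3 and Adamts10 within the spread. Adamts1, Adamts4, Adamts5 and Adamts9 cut the large proteoglycans versican and aggrecan. In fibroblast-like cells they had 348 ± 107, 55.5 ± 21.1, 50.3 ± 13.5 and 134 ± 29.9 CPM, each above the next class in 6 of 6 tumors. These SDs are over mouse means and do not show the spread between tumors. Adamts4 ran from 10.4 (tumor 2) to 84.6 CPM (tumor 5), and Adamts5 from 5.18 (tumor 2) to 118 CPM (tumor 5). Tumor 2 had 29 fibroblast-like cells, so its low values rest on very few UMIs. For the first and last, however, tumor epithelial-like cells held most of the UMIs, 70.6% of those of Adamts1 at 15.5 ± 6.41 CPM and 84.8% of those of Adamts9 at 14.0 ± 1.75 CPM. Adamts1 rose from 0.101, 0.0752 and 0.0913 CPM to between 2.49 and 15.1 CPM (median 5.74; log2 fold change 6.18 ± 0.70, edgeR adjusted p = 3.8e-06). Adamts9 rose from 0.0719, 0.125 and 0.240 CPM to between 1.08 and 14.0 CPM (median 4.61; log2 fold change 5.19 ± 0.83, edgeR adjusted p = 8.17e-05). Both were without overlap. Adamts15, of the same group, was not called (log2 fold change −0.31 ± 0.46, adjusted p = 0.557).

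Adamts2, which trims procollagen, had 117 ± 73.5 CPM in fibroblast-like cells, where 89.0% of its UMIs lay. Its tumor range in all cells was 0.0156 to 5.01 CPM, mucosa had 0, 0 and 0.0799 CPM, and the groups overlapped (log2 fold change 4.65 ± 1.74, edgeR adjusted p = 0.0275). The other procollagen enzymes differed in direction: Adamts14 was higher (log2 fold change 2.58 ± 0.44, edgeR adjusted p = 0.000137) and Adamts3 lower (−1.09 ± 0.41, adjusted p = 0.0270). Among the remaining ADAMTS, Adamts6, Adamts7 and Adamts17 were higher and Adamts16 lower (−0.94 ± 0.40, edgeR adjusted p = 0.0496). Adamts10, found in fibroblast-like (37.2 ± 18.2 CPM), NK or innate lymphoid-like (19.5 ± 1.08 CPM) and T cell-like cells (16.8 ± 1.03 CPM), was at 4.95, 2.07 and 3.25 CPM in mucosa and 3.06 to 4.28 CPM in tumors and was not called (adjusted p = 0.615). Adamts12, at 21.8 ± 16.1 CPM in fibroblast-like cells, where 78.1% of its 64 tumor UMIs lay, was not called either (2.42 ± 1.05, edgeR adjusted p = 0.0522). Adamts12 was called higher in 6 alternatives, with DESeq2 (adjusted p = 0.0355), with doublets kept and without tumor 3, 4, 6 or 7.

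To hold the epithelium apart from the infiltrating cells, UMIs were summed over the epithelial clusters of each library. Of 40 members tested, 30 were higher in tumors and 1, Adam18, was lower, where 33.7% of 15528 genes were called higher and 30.1% lower. Of the 30 higher calls, 28 held in each of 24 alternatives and those of Adam11 and Adam19 did not. The 30 calls, and the median below, include Mmp8, Mmp9, Mmp12 and Adam19, which are not read as epithelial expression for the reasons given below. Adam18 was called lower in each alternative that could test it, which the epithelium without goblet-like clusters could not. Every tumor lay above every mucosa sample in 26 members (32.9% of all genes) and below in 1 (12.7%). The members' median log2 fold change was 2.51 against 0.0409 over all genes. The epithelial clusters differ in kind between the tissues, with tumor epithelial-like cells in the one and goblet-like, absorptive epithelial-like and other epithelial cells in the other, so these values compare the epithelium as a whole.

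Mmp7 had the highest level of the members in the tumor epithelium. The mucosa epithelium had 3.68, 5.22 and 6.80 CPM and the tumor epithelium 159 to 666 CPM (median 413), with a log2 fold change of 6.14 ± 0.49 (edgeR, adjusted p = 5.61e-07). Without the Paneth-like cluster, left out after the data were seen, the log2 fold change of Mmp7 was 5.28 (edgeR, adjusted p = 1.15e-06). Mmp14 moved from 25.4, 23.8 and 21.0 CPM to between 56.2 and 153 CPM (median 111; 1.92 ± 0.22, adjusted p = 7.47e-06) and Mmp15 from 18.1, 14.9 and 18 CPM to between 32.0 and 67.3 CPM (median 51.3; 1.32 ± 0.19, adjusted p = 4.6e-05). All 3 were without overlap, and Mmp15, which overlapped in the sums over all cells, was separated here. Mmp28, lower in the sums over all cells, was not called in the epithelium (0.01 ± 0.30, edgeR adjusted p = 0.980).

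Inhibitors rose in the same epithelium. Timp1 was at 0.0673, 0.120 and 0.10 CPM in mucosa and 8.43 to 23.7 CPM in tumors (median 17.4), a log2 fold change of 7.19 ± 0.38 (edgeR adjusted p = 3.23e-08). Timp3 was at 0.589, 0.983 and 0.639 CPM and 15.5 to 32.5 CPM (median 18.9; 4.54 ± 0.30, adjusted p = 1.31e-07). Timp2 was at 11.4, 6.75 and 7.61 CPM and 9.87 to 85.0 CPM (median 45.3; 2.28 ± 0.46, adjusted p = 0.000772), and tumor 10 lay within the mucosa range. Timp4 was not called (0.08 ± 0.64, adjusted p = 0.916).

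Of the sheddases, Adam10 had 40.8, 47.3 and 41.7 CPM in mucosa epithelium and 66.4 to 104 CPM in tumor epithelium (log2 fold change 0.78 ± 0.10, edgeR adjusted p = 2.11e-05). Adam17 had 13, 11.2 and 11.8 CPM and 16.0 to 21.5 CPM (0.45 ± 0.09, adjusted p = 0.000517). Both were without overlap, while Adam9 (−0.15 ± 0.16, adjusted p = 0.430) and Adam15 (−0.16 ± 0.12, adjusted p = 0.240), higher in the sums over all cells, were not called here. Without goblet-like clusters Adam15 was called lower (−0.36, edgeR adjusted p = 0.02). Adam8 was at 0.471, 0.478 and 0.527 CPM and 6.61 to 21.9 CPM (4.62 ± 0.38, adjusted p = 6.77e-07), and Adam12 at 0, 0.0531 and 0.0125 CPM and 1.30 to 5.79 CPM (6.87 ± 0.66, adjusted p = 2.2e-06). Adamts1 (6.67 ± 0.65), Adamts9 (5.80 ± 0.95), Adamts7 (3.6 ± 0.57) and Adamts4 (3.6 ± 0.54) were higher without overlap, and Adamts6 had 2 UMIs in mucosa epithelium and 393 in tumor epithelium, a ratio of 144 (95% counting interval 39.6 to 1194). Adam18 had 9.96, 2.60 and 2.11 CPM in mucosa and 0 to 0.959 CPM in tumors (−5.66 ± 0.91, edgeR adjusted p = 0.000126).

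**Figure D5:**
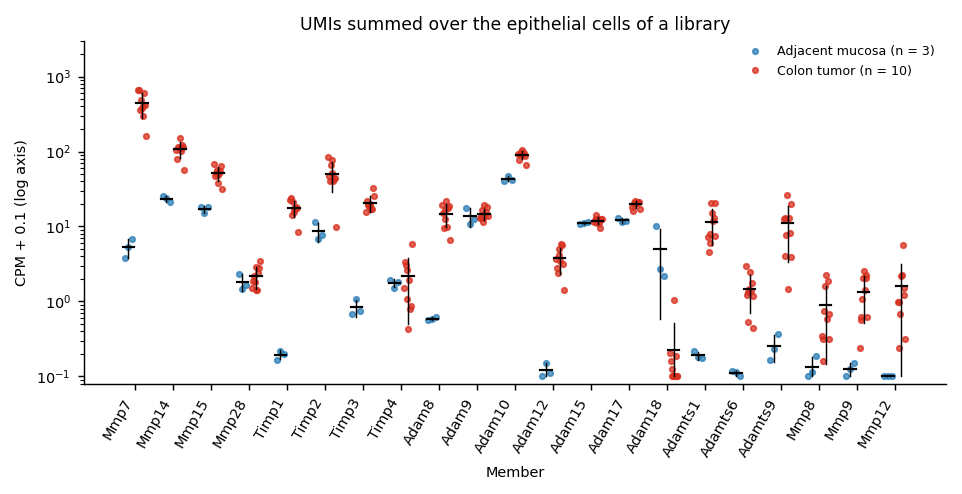
CPM + 0.1 (log axis) of the members described here in the epithelial cells of each library, with 1 point per library, a bar at the mean and a line of 1 SD. Mmp7, Timp1 and Adamts1 are separated between 3 mucosa samples and 10 tumors, Adam9 and Adam15 overlap, and Mmp8, Mmp9 and Mmp12 stay at or below 5.50 CPM in every tumor.

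Some leukocyte members were also called in the epithelial sums, and free RNA can give UMIs to cells that do not express a gene. The immune markers fixed for naming appeared in the tumor epithelium at 0.815% of their level in immune cells. At that rate Mmp9 would have 1.57 CPM and had 1.15 (median of tumors, above the rate in 0 of 10), Mmp12 1.30 and had 1.01 (1 of 10), and Mmp8 1.06 and had 0.534 (0 of 10). The medians of these 3 lay below that rate, so they are not read as epithelial expression, although edgeR called each of them higher. Adam19, highest in neutrophil-like and T cell-like cells, had 0 to 0.845 CPM in tumor epithelial-like cells. Its level at that rate is not given, so its epithelial call is not read as epithelial expression either. Adam8, at 15.6 CPM against 1.44, Timp1, at 17.4 against 0.573, Mmp25, at 1.14 against 0.188, and Adam30, at 0.912 against 0.0917, were above that rate in 10 of 10 tumors. The rate takes all immune cells as 1 source, and the part of foreign RNA in the epithelial values was not tested. Mmp25, Mmp12, Adam30 and Adam1b had no UMI in the mucosa epithelium.

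In T cell-like cells, 5454 in tumors and 1038 in mucosa, 14 members could be tested. Different clusters held most of the class in the tissues. The cluster led by Il17a and Tnfrsf4 had 4046 tumor and 211 mucosa cells, and the cluster led by Cxcr6 and Gimap4, with a median of 651 UMIs per cell, 9 tumor and 552 mucosa cells. In the cluster led by Cxcr6, 6 of the epithelial and 2 of the immune naming markers were found in at least 25% of the cells. Its sums may thus mix T cell and epithelial RNA. A cluster led by Cd160, Cd7 and Gzma, with 96 tumor and 4083 mucosa cells, was left out of the class. Its leading genes include the T cell receptor genes Tcrg-C2, Trgv2, Tcrg-C4 and Tcrg-C1. The part of these differences in the values below was not tested. Of the 14 members, 9 were higher in tumors and 1 was lower, where 12.9% of 9441 genes were called higher and 11.9% lower. Every tumor lay above every mucosa sample in 5 of them (7.75% of all genes) and below in 0 (11.3%). Adam8 was at 14.4, 9.87 and 9.14 CPM in mucosa and 27.4 to 49.2 CPM in tumors (median 42.9; log2 fold change 1.87 ± 0.25, edgeR adjusted p = 3.32e-05). Adam9 was at 4.80, 4.94 and 5.49 CPM and 12.6 to 42.8 CPM (2.23 ± 0.46, adjusted p = 0.00154), and Mmp25 at 5.61, 17.3 and 9.14 CPM and 17.8 to 37.1 CPM (1.57 ± 0.34, adjusted p = 0.00259). None of these 3 overlapped, and the same held for Adam12 (1.87 ± 0.51, adjusted p = 0.0124) and for Adam30, which had no UMI in mucosa T cells and was at least 2.59-fold higher. Adam8, Mmp25 and Adam30 are also neutrophil-like cell genes by level, and neutrophil-like cells made up 30.5% of the tumor cells against 0.191% of the mucosa cells. At the rate of the neutrophil markers S100a8 and S100a9 in tumor T cell-like cells, 0.0893% of their level in neutrophil-like cells, Adam8 would have 0.469 CPM, Mmp25 0.0627 and Adam30 0.0284 CPM. The medians over tumors were 42.9, 23.0 and 3.33 CPM, above that rate in 10 of 10 tumors for each. Mmp9, whose RNA lay mostly in neutrophil-like cells, had 6.49 CPM against 0.817 CPM at the same rate, so it too stood above it. The rate takes neutrophil-like cells as the only source, while Adam8 also lay in macrophage-like and monocyte-like cells and Mmp25 in dendritic cell-like cells. No such rate is given for the T cell-like cells of the mucosa, and the part of foreign RNA in these T cell values was not tested.

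Adam17 (0.90 ± 0.24, edgeR adjusted p = 0.0105), Adam19 (0.59 ± 0.19, 0.0280) and Timp2 (0.52 ± 0.19, 0.0496) were higher in tumor T cells with overlapping ranges. The call of Timp2 was lost in 17 of 23 alternatives, among them the mouse as a replicate block (edgeR adjusted p = 0.0588) and DESeq2 (adjusted p = 0.0502). Mmp7 was also called, from 1 UMI in mucosa and 120 in tumors (ratio 11.7, 95% counting interval 2.05 to 464). Its median of 6.21 CPM in tumor T cells stood against 3.52 CPM at the rate of epithelial markers in these cells (above it in 8 of 10 tumors), and B cell-like cells had a median of 9.24 CPM, both classes being ones that should lack it, so no expression is read from it. Adamts10 was the member that was lower, at 24.0, 39.5 and 40.2 CPM in mucosa and 12.5 to 24.1 CPM in tumors, where tumor 3 just passed mucosa 1 (−0.85 ± 0.21, edgeR adjusted p = 0.00573). Adam10 was not called (0.32 ± 0.20, adjusted p = 0.259). With mucosa 3 left out, 4 members in place of 10 were called in T cell-like cells. Of the 9 higher calls, those of Adam8, Adam9 and Mmp25 held in each of 23 alternatives and the other 6 did not. Among these, Adam30 could be tested in 15 of 24 settings, the main one included, and its call was lost in 2. Mmp7 could be tested in 23 of 24 and its call was lost in 5. The lower call of Adamts10 was lost without mucosa 3.

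In B cell-like cells 2 members could be tested. Most tumor cells of this class, 4507, lay in the cluster led by Ighd and Fcmr, which held 668 mucosa cells, while the cluster led by Ccr6 and Ms4a1 held 24 tumor and 419 mucosa cells. Adam10 was at 21.8, 20.3 and 26.3 CPM in mucosa and 24.6 to 48.2 CPM in tumors (median 34.5) and was called higher with overlap (log2 fold change 0.69 ± 0.23, edgeR adjusted p = 0.0186), where 19.3% of 5777 genes were higher and 20.1% lower. Neither member was separated, against 7.39% of genes with every tumor above and 10.4% with every tumor below the mucosa. Adam17 was not called (0.05 ± 0.23, adjusted p = 0.898). The call of Adam10 was lost without mucosa 1, without mucosa 2, without tumor 7 and under DESeq2.

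Genes that work with these enzymes were counted in the same fits, where 36.1% of all genes were higher and 33.8% lower in the sums over all cells and 33.7% and 30.1% in the epithelium. Of the plasminogen system, which activates several pro-MMPs, 7 of 7 tested genes were higher in the sums over all cells (median log2 fold change 5.59, against 0.0279 over all genes), among them the urokinase receptor Plaur (a mean of 7.17 CPM in mucosa and 346 CPM in tumors, log2 fold change 5.60 ± 0.36, edgeR adjusted p = 3.02e-08) and the activator Plat (0.884 ± 0.512 to 43.5 ± 21.0 CPM, 5.59 ± 0.66, adjusted p = 5.46e-06). In the epithelium 5 of 6 were higher. Of 14 other regulators tested, 8 were higher and 5 lower (median 0.96), the lower share being near that of all genes. The proprotein convertase Furin, which activates membrane-type MMPs and ADAMs, was higher (1.95 ± 0.21), and the MMP inducer Bsg was lower (−0.82 ± 0.12). Of the tetraspanins that accompany ADAM10, Tspan14 (1.08 ± 0.11) and Tspan5 (0.83 ± 0.18) were higher and Tspan15 (−1.57 ± 0.21), Tspan33 (−1.43 ± 0.18) and Tspan17 (−0.76 ± 0.15) lower. Of the cysteine cathepsins and their inhibitors, 8 of 8 were higher in all cells (median 2.12), while 2 of 8 were higher and 2 lower in the epithelium, shares near those of all genes. Among matrix proteins that these enzymes cut, 18 of 20 were higher in all cells (median 5.63) and 12 of 15 in the epithelium. There Vcan (versican), higher in all cells (3.65 ± 0.55), was lower (log2 fold change −1.70 ± 0.47, edgeR adjusted p = 0.00581), while Col4a1 rose by 5.06 ± 0.62 and Fn1 by 9.24 ± 0.49 on the log2 scale.

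The AP-1 subunits, whose binding letters are shown above for 5 of the MMP genes, were higher in 10 of 10 cases in all cells (median 2.31) and 8 of 10 in the epithelium, with Junb at 175 ± 23.1 CPM in mucosa and 1140 ± 269 CPM in tumors (log2 fold change 2.71 ± 0.26, edgeR adjusted p = 9.26e-07). Jun, Fos and Junb are also among the genes that tissue dissociation induces, and of a list of 15 such genes 15 were higher in all cells, 14 in the epithelium and, of 14 tested, 12 in T cell-like and 12 in B cell-like cells. The part of dissociation in these changes, and in those of the members, was not tested.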

How the data were processed

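Per the labels and the study's methods, 10x 3′ single-cell libraries were aligned by the authors to mm10 with Cell Ranger (6.0.0 in the submitters' processing notes, an older version in the study's methods), and the deposited values are raw UMI counts per gene and barcode. Here, barcodes with at least 500 UMIs, 200 genes and at most 25% mitochondrial UMIs were kept and doublets removed at 0.8% per 1000 cells. Cells were clustered (2000 variable genes without the members, 30 components, 20 neighbours, Leiden resolution 1, python-igraph 0.11.9) and named from fixed markers with thresholds set after the clusters were seen. Counts were summed per library and tested with the edgeR 4.0.16 quasi-likelihood test (TMM, filterByExpr, Benjamini-Hochberg 0.05), which was tested on simulated data. Only the edgeR fold changes include TMM, so they differ from ratios of CPM. DESeq2 1.42.0, other filters, clusterings and left-out libraries were alternatives. P-values measure the spread between libraries, and tumors of 1 mouse are not independent animals. The animal codes pair the tissues, and deviations of tumors and mucosa from the group means correlated at 0.13, 0.0324 and 0.0776 within mice A, B and C and at −0.112 to 0.00948 between mice. Intervals, floors (3 counts) and thinned shares cover counting error only. Members and gene lists were chosen with earlier results of these data known. Members were named if they were TIMPs, reached 5 CPM in all cells or 20 CPM in a tumor class, or were among the 10 largest called changes of a comparison. Mmp28, Adam18, Adamts3 and Adamts16, the lower calls, and members given only to complete a role were named after their values were seen.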

Additional observations from a re-analysis of the deposited data

Results flagged for a closer look

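Among 106 groups of 10 tumors examined, 16 held a tumor whose gap to its nearest neighbour was large against the range of the group. The cut-off gives about 1 in 20 by chance for independent, normally distributed values. The CPM were not transformed, tumors of 1 mouse are not independent and the groups share tumors and members. The 16 are therefore not set against that rate. In all retained cells, tumor 5 was the high one for 7 members, at 11.6 CPM for Mmp3, 6.03 for Mmp10, 13.6 for Mmp2, 2.67 for Mmp23, 5.01 for Adamts2, 1.74 for Adamts4 and 1.87 for Adamts5. Fibroblast-like cells were the class with the highest level of each of these members, and tumor 5 held 93 of the 314 fibroblast-like cells, 1.06% of its cells against a median of 0.242%. Within fibroblast-like cells tumor 5 was also the highest of the 6 tumors with enough of them for each of the 7 members, at 725 CPM for Mmp3, 363 for Mmp10, 652 for Mmp2, 146 for Mmp23, 317 for Adamts2, 84.6 for Adamts4 and 118 for Adamts5. The parts of the share and of the level in the values were not tested. Tumor 1 stood high for Adam11 (0.978 CPM), tumor 6 for Adam18 (0.385 CPM) and tumor 9 for Adam9 (31.5 CPM).

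In the epithelial sums, tumor 6 stood high for Adam18 (0.959 CPM), Adam19 (0.792 CPM) and Adamts10 (2.67 CPM), tumor 7 for Mmp12 (5.50 CPM) and tumor 1 for Mmp23 (1.43 CPM). In absorptive epithelial-like cells, tumor 1 stood high for Mmp15, at 158 CPM.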

How the results depend on the processing

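With the mouse as a replicate block, 42 members were higher and 4 lower in all cells, 30 and 1 in epithelial cells, 8 and 1 in T cell-like cells and 1 and 0 in B cell-like cells, and the block changed 1 call, that of Timp2 in T cell-like cells (adjusted p = 0.0588 in edgeR). Over all genes, the block gave 6468 higher and 6114 lower of 17554 tested in all cells. It gave 5347 and 4859 of 15528 in epithelial cells and 1238 and 1123 of 9441 in T cell-like cells. With the tumors of a mouse summed, the lower members in all cells numbered 1, the members called in T cell-like cells 6 (5 higher) and in B cell-like cells 2. Over all genes, 5079 of 17359 tested were then lower in all cells. In T cell-like cells 928 were higher and 813 lower of 9976. Doublets kept gave 2 lower epithelial members and 6 B cell-like ones, no filter on low counts 2 and 4, DESeq2 0 in B cell-like cells, and the Cd160 and Gzma cluster, added after the data were seen, 2 lower in T cell-like cells. Over all genes, 4976 of 15999 were lower in the epithelium with doublets kept and 5189 of 23967 with no filter. With the Cd160 and Gzma cluster, 2159 of 10127 were lower in T cell-like cells. The 6 and 4 B cell-like members exceed the 2 tested in the main fit, because these settings tested more members. Leaving out 1 library at a time gave 37 to 43 higher and 2 to 4 lower members in all cells, 28 to 30 and 1 to 2 in epithelial cells, 4 to 10 called in T cell-like cells (4 to 9 higher, 0 to 1 lower) and 0 to 1 in B cell-like cells, the low values coming without mucosa 1 or 3 for the lower members in all cells, without mucosa 3 in T cell-like cells, and without mucosa 1, mucosa 2 or tumor 7 in B cell-like cells. Over all genes, the same fits gave 5799 to 6383 higher and 5405 to 6010 lower in all cells. They gave 4573 to 5399 and 4088 to 4871 in epithelial cells, and 844 to 1270 and 679 to 1218 in T cell-like cells. For B cell-like cells the main fit gave 1117 higher and 1162 lower of 5777 genes. Numbers over all genes under the alternatives are not given for that class, so its member counts above are not read as a result.

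Directions turned for uncalled differences of log2 fold change. Adam22 in all cells was −0.063 with the replicate block and −0.22 to 1.09 with 1 library left out, and Adamts10 −0.14 to 0.45. In the epithelium Adam9 was 0.26 without goblet-like clusters and −0.31 to 0.078 with 1 library left out. Mmp28 there was −0.0043 with DESeq2, −0.021 with doublets kept, −0.0018 with median-ratio size factors, −0.10 under 10% mitochondrial UMIs, −0.022 with no filter on low counts, −0.078 without the Paneth-like cluster and −0.14 to 0.24 with 1 library left out. Timp4 there was −0.047 with the replicate block and −0.25 to 0.21 with 1 library left out. Mmp14 in T cell-like cells was −0.23 (without mucosa 1) to 1.43. Adam17 in B cell-like cells was −0.0064 with DESeq2, −0.012 at Leiden resolution 2 and −0.081 to 0.11 with 1 library left out. The cause of these changes was not tested. In the B cell-like sums 2 members passed the filter on low counts, and the fibroblast-like levels rest on 6 tumors. The class with the highest tumor level also changed for some members. With doublets kept, fibroblast-like cells led Mmp13 (264 CPM, C1q+ macrophage-like cells 172) and Timp1 (363 CPM, Spp1+ macrophage-like cells 341). They also led Timp1 without mouse B or C and Mmp14 without mouse B. Without mouse A the Spp1+ class led Mmp12, and without mouse C the C1q+ class led Timp2. Other changes were in Timp4, Adam1b, Adam9, Adam22, Adam23 and Adamts6.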

Other observations

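Within named classes, members differed between clusters. Among neutrophil-like cells, the cluster led by Retnlg (24077 cells) had 633 ± 169 CPM of Mmp8 and 916 ± 48.3 CPM of Mmp9 (mean ± SD over 3 mice), and the cluster led by Ccl3 (2116 cells) 99.3 ± 26.3 and 488 ± 144 CPM. Adam17 was at 25 ± 2.83 CPM in the first and 128 ± 19.3 CPM in the second. Among Spp1+ macrophage-like cells, Mmp12 was at 464 ± 124 CPM in the cluster led by Inhba and Serpinb2 and at 775 ± 79.0 CPM in the cluster led by Ccl24, Spp1 and Arg1. At the finer clustering, Mmp25 was at 265 ± 51.1 CPM in dendritic cell-like cells led by Ccl22 and Fscn1 and at 24.9 ± 4.63 CPM in those led by Cd209a. These clusters were drawn from the same cells without the members, and the differences carry no test.

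Levels within a class also differed by mouse. Mmp8 in neutrophil-like cells was 353 to 542 CPM in the 4 tumors of mouse C, 677 to 891 CPM in the 4 of mouse A and 596 and 645 CPM in those of mouse B. Timp1 in Ly6c+ monocyte-like cells ran from 202 to 394 CPM in mouse C, 66.9 to 114 CPM in mouse A and 158 and 169 CPM in mouse B. Age differs with mouse, so both cannot be told apart.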
